A study of Mus musculus with 6 samples.

Results

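The Frizzled receptor family of the mouse, *Fzd1* to *Fzd10*, was followed in RNA-seq libraries of dental pulp. Members were chosen by gene symbol, and all 10 were found among the 27506 genes of the deposited count table. All 10 had enough counts to be tested. The libraries came from the mandibular first molar of C57BL/6 mice at 3.5 days after birth, the stage at which molar roots start to form. There were 3 control libraries of the genotype Ror2fl/fl and 3 mutant libraries of the genotype Osr2-Cre;Ror2fl/fl. By the genotype labels, both groups carried the floxed *Ror2* allele and only the mutant mice carried Cre. With these genotypes, an effect of Cre itself cannot be told apart from the loss of *Ror2*. Recombination by *Osr2-Cre* takes place in mesenchymal cells of the tooth and in the bone around it, so epithelial cells of the mutant tooth keep *Ror2*. The question of the comparison was how transcript levels in the pulp change when the mesenchyme lacks Ror2. The labels do not say that each library is a separate mouse, so p-values measure only the spread between these libraries.

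Frizzled proteins are receptors that span the membrane several times and bind Wnt ligands through an extracellular domain rich in cysteines. With Lrp5 or Lrp6 as co-receptor they stabilize β-catenin, and with Ror1, Ror2, Ryk or Ptk7 they feed the branches of Wnt signaling that do not use β-catenin. Dishevelled proteins bind the cytoplasmic side of the receptor in either case. In the tooth, Wnt signals pass between epithelium and mesenchyme from the first thickening of the dental epithelium to the elongation of the root. By sequence the family falls into the groups *Fzd1*, *Fzd2* and *Fzd7*, then *Fzd3* and *Fzd6*, then *Fzd5* and *Fzd8*, and finally *Fzd4*, *Fzd9* and *Fzd10*.

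The genes lie on 7 chromosomes of mm10, and 6 of them consist of a single exon in GENCODE release M21. *Fzd1* (ENSMUSG00000044674.6) is a single exon on the minus strand of chromosome 5, from 4753839 to 4758035. *Fzd7* (ENSMUSG00000041075.8), its relative with the highest level in these libraries, is a single exon on the plus strand of chromosome 1, from 59482424 to 59486955. *Fzd3* (ENSMUSG00000007989.7) runs over 7 exons on the minus strand of chromosome 14, from 65192449 to 65262463, and has the longest exon sequence, with 12804 bases. The length of a read is 75 bases, and no stretch of this length was shared between 2 Frizzled genes. *Fzd5* shared 1087 of its 6913 stretches with the antisense gene *Gm38058*, and *Fzd6* shared 78 of 4888 with the antisense gene *Gm26704*. The use of strand in counting is not stated. These antisense genes had at most 19 and 43 counts in any library, against at least 2579 for *Fzd5* and 4330 for *Fzd6*. Summing each pair left the log2 fold changes at -0.17 for *Fzd5* and -0.15 for *Fzd6*.

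The stretch before the RefSeq start site is shown for *Fzd1*, the member that fell in the mutant libraries, and for *Fzd7*, a close relative with no such call. Both are read 5′ to 3′ on the strand of the gene, on build GRCm38.p6. *Fzd1* is taken from chr5:4758217-4758466 and *Fzd7* from chr1:59481897-59482146. For both genes the RefSeq start lies before the start of the GENCODE gene given above, so distances hold for the RefSeq start only. Capitals mark the letters CTTTGT or CTTTGA, the core bound by TCF and LEF factors, on either strand.
Fzd1: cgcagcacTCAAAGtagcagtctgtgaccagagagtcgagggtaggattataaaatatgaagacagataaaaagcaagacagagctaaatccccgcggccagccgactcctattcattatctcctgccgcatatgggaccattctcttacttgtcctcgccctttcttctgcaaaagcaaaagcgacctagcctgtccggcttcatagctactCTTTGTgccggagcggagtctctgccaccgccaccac
Fzd7: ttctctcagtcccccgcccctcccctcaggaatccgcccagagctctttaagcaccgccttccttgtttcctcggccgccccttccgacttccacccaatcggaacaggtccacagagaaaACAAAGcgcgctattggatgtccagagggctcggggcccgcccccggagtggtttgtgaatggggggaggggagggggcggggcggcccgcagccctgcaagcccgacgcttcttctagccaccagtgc
The *Fzd1* stretch held CTTTGT with its first base 37 bases before the start and, on the other strand, a match with its first base 242 bases before it. The *Fzd7* stretch held a match on the other strand, 129 bases before the start. Such a match was found in 31.2% of all 32851 RefSeq windows that reach from 250 bases before to 50 bases after a start. Windows of this kind were matched for 6 members, and the other 4 of these, *Fzd4*, *Fzd5*, *Fzd9* and *Fzd10*, held none. The GC box GGGCGG, found in 35.7% of all windows on either strand, occurred between 1 and 10 times in the windows of *Fzd4*, *Fzd5*, *Fzd7*, *Fzd9* and *Fzd10* and was not among the letters of the *Fzd1* window. *Fzd1* also had the lowest GC content of the 6 windows, 54%, against 66.7% to 78% in the others. The median over all windows was 52.7%, close to that of *Fzd1*. The letters TATAAA, found in 13.6% of all windows on either strand, occurred in the *Fzd1* window alone of the 6.

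Levels of different members were compared as CPM, the counts of a gene relative to a common library total, scaled between libraries with edgeR's TMM method, per kilobase of exon. *Fzd7* had the highest mean in control libraries, with 24.5, 31.1 and 30.3 CPM per kb in libraries 1, 2 and 3. *Fzd6*, a receptor of planar cell polarity, followed with 24.6, 22.8 and 21.6 CPM per kb, and the ranges of both genes overlapped. *Fzd2*, which can bind Wnt5a together with Ror receptors, stood below both with 16.2, 16.3 and 16.9 CPM per kb. *Fzd7*, *Fzd6* and *Fzd2* thus led the family in every control library.

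*Fzd5* and *Fzd1* came next, with means of 9.32 ± 0.285 and 9.26 ± 1.18 CPM per kb (SD, n = 3), and their ranges overlapped. *Fzd3*, the other receptor of planar cell polarity, had 7.12 ± 0.368 CPM per kb and *Fzd8*, the relative of *Fzd5*, 6.01 ± 0.901 CPM per kb. *Fzd10* had 4.03 ± 0.31 CPM per kb. *Fzd4*, a receptor for Norrin in blood vessels of the retina, had 1.94 ± 0.466 CPM per kb. *Fzd9*, known from bone-forming cells, was the lowest with 0.409 ± 0.0872 CPM per kb. Apart from the pairs *Fzd7* with *Fzd6* and *Fzd5* with *Fzd1*, the ranges of neighbours in this order did not overlap in control libraries. The order in mutant libraries differed only in that *Fzd8* stood above *Fzd3*, and the ranges overlapped for 6 of its 9 neighbouring pairs, against 2 of 9 in control libraries.

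**Figure D1:**
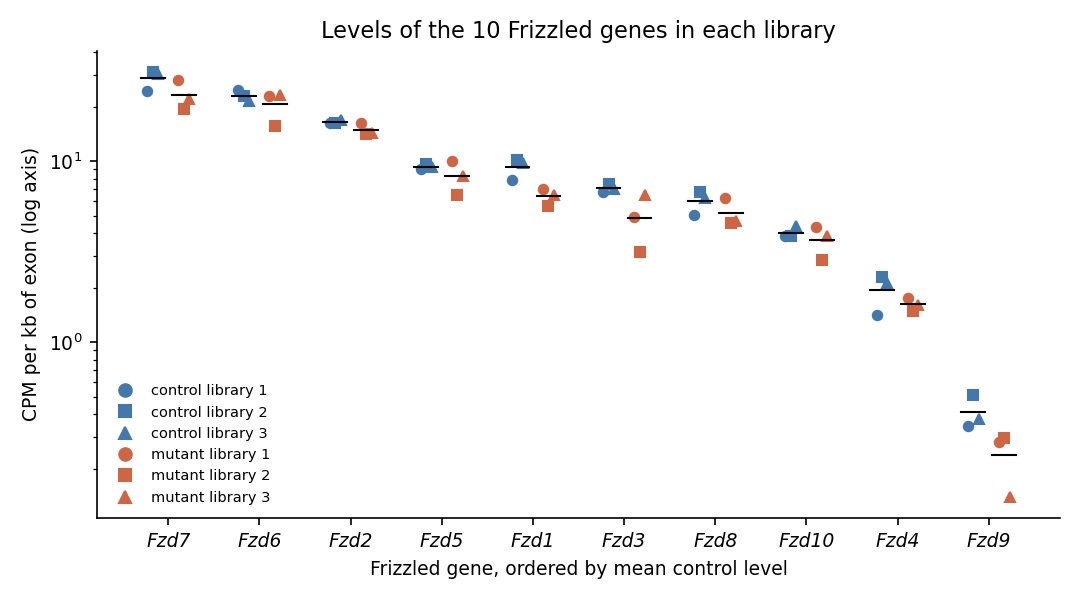
Level of each Frizzled gene in CPM per kb of exon (log axis) in 3 control (blue) and 3 mutant (orange) libraries, with marker shapes for the library number and black lines for group means. *Fzd7*, *Fzd6* and *Fzd2* lie highest and *Fzd9* lowest, and for most genes the square of mutant library 2 lies below the other mutant libraries.

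As shares of the summed level of the family per kb, *Fzd1*, *Fzd2* and *Fzd7* together held 48.8% to 52.7% in control and 47.1% to 53.3% in mutant libraries. *Fzd3* and *Fzd6* held 26.5% to 31.5% and 25.4% to 32.6%, *Fzd5* and *Fzd8* 14.1% to 14.8% and 14.2% to 16%. *Fzd4*, *Fzd9* and *Fzd10* held 5.64% to 6.38% in control and 6.13% to 6.28% in mutant libraries. The ranges of the groups overlapped for all 4 shares. The summed level itself was 99.6, 111 and 108 CPM per kb in control libraries and 102, 73.7 and 91.1 CPM per kb in mutant libraries 1, 2 and 3.

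Control and mutant libraries were then compared gene by gene. *Fzd1* was the member that passed the threshold, an adjusted p-value under 0.05 in edgeR's quasi-likelihood test over all 19330 genes tested, and it fell by 31% in the mutant libraries. No member rose, and 9 did not pass. Of all genes tested 20.1% passed, 10.3% as higher and 9.81% as lower, so 1 lower gene among 10 is close to the share in the whole table. The unadjusted p-value was under 0.05 for 2 members, *Fzd1* and *Fzd3*, and for 38.2% of all genes tested. DESeq2's Wald test called *Fzd1* alone of the 10, and 28% of all genes.

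The libraries held between 56134770 and 62628940 estimated counts. Mutant library 2 had the lowest total and stood apart from the other mutant libraries, with a chi-square per gene of 273 and 222 against them and 60.6 between them. Genes of the dental mesenchyme summed to 503 to 578 CPM in control libraries and 584 to 653 CPM in mutant libraries. The higher sum came from *Msx2* and *Dlx2*, with means of 168 and 108 CPM in control libraries and 219 and 153 CPM in mutant libraries, while the median log2 fold change of the 10 genes was -0.07 and 5 of them were below 0. The odontoblast gene *Dspp* was between 2520 and 7980 CPM. The enamel genes *Amelx*, *Ambn*, *Enam* and *Amtn* of ameloblasts summed to 168000 to 189000 CPM in control libraries and 181000 to 251000 CPM in mutant libraries. Of these only *Amelx* had a higher mean in mutant libraries, 140000 against 94500 CPM. The other 3 had log2 fold changes below 0, and the median of the 4 was -0.29. The dissected pulp thus also held RNA of the enamel epithelium. Frizzled levels are therefore those of a mixture, in which fewer cells of a type and less RNA per cell cannot be told apart. All 5 skeletal muscle markers fell, from a sum of 9.04 to 23.8 CPM in control to 2.49 to 3.22 CPM in mutant libraries, as did 2 of 4 erythroid markers. Of 4 Schwann cell markers 2 rose. None of 6 endothelial, 4 odontoblast or 4 bone markers passed in edgeR or DESeq2, and 0 of them had an unadjusted p under 0.05. None of 6 dental epithelial markers passed in edgeR, where 4 had an unadjusted p under 0.05, and DESeq2 called 2 as higher and 1 as lower. None of 5 pericyte and smooth muscle markers passed in edgeR, where 2 had an unadjusted p under 0.05, and DESeq2 called 2 as lower. Of 10 mesenchyme markers 2 rose and *Prrx1* fell in edgeR, whereas DESeq2 called 2 as higher and 3 as lower, *Lhx8* and *Pax9* besides *Prrx1*. Of 4 ameloblast markers *Amelx* rose, and of 5 leukocyte markers *Adgre1* fell. The part of these cells in the change of *Fzd1* was not tested.

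*Fzd1* had 33.2, 42.4 and 41 CPM in control libraries and 29.3, 23.8 and 27.3 CPM in mutant libraries. Every mutant library lay below every control library (exact permutation test, two-sided, p = 0.1, the smallest p that 3 against 3 libraries allow). The log2 fold change was -0.54 (standard error 0.13, 95% interval -0.83 to -0.25, edgeR adjusted p = 0.024). Without control library 2 it was -0.48 and without control library 3 it was -0.50, both with an adjusted p of 0.11 from edgeR. Over all 18 alternatives it ran from -0.71 to -0.45, with an adjusted p between 0.0027 and 0.11.

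The relatives of *Fzd1* did not pass. *Fzd7*, which acts in gastrulation and in epithelial stem cells, had 111, 141 and 137 CPM in control libraries and 127, 88.1 and 99.9 CPM in mutant libraries. Mutant library 1 lay among the controls, and the log2 fold change was -0.31 (95% interval -0.67 to 0.05, edgeR adjusted p = 0.19), or -0.18 without mutant library 2. *Fzd2* had 59.3, 59.7 and 61.8 CPM in control libraries and 59.5, 52 and 52.5 CPM in mutant libraries, with a log2 fold change of -0.14 (95% interval -0.35 to 0.07, edgeR adjusted p = 0.29). This interval was the narrowest of the family and reached down to 0.785 of the control level. With an offset for GC content in the fit, the log2 fold change of *Fzd2* was -0.33 (edgeR adjusted p = 0.056). The ratio of *Fzd1* to *Fzd7* within a library needs no scaling between libraries. It was 0.299, 0.30 and 0.299 in control and 0.231, 0.27 and 0.273 in mutant libraries, so the groups did not overlap. The ratio of *Fzd1* to *Fzd2* did not overlap either, with 0.56, 0.71 and 0.664 in control and 0.492, 0.457 and 0.521 in mutant libraries. The ratios to *Fzd4*, *Fzd8* and *Fzd10* were also lower without overlap, while those to *Fzd3*, *Fzd5*, *Fzd6* and *Fzd9* overlapped. On the log2 scale the ratios to *Fzd7* and *Fzd2* changed by -0.22 and -0.39. Those to *Fzd4*, *Fzd5*, *Fzd6*, *Fzd8* and *Fzd10* changed by -0.38 to -0.3, and those to *Fzd3* and *Fzd9* by 0.08 and 0.3. These ratios are descriptions that share the *Fzd1* values given above, since *Fzd1* was chosen for them as the member that passed.

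**Figure D2:**
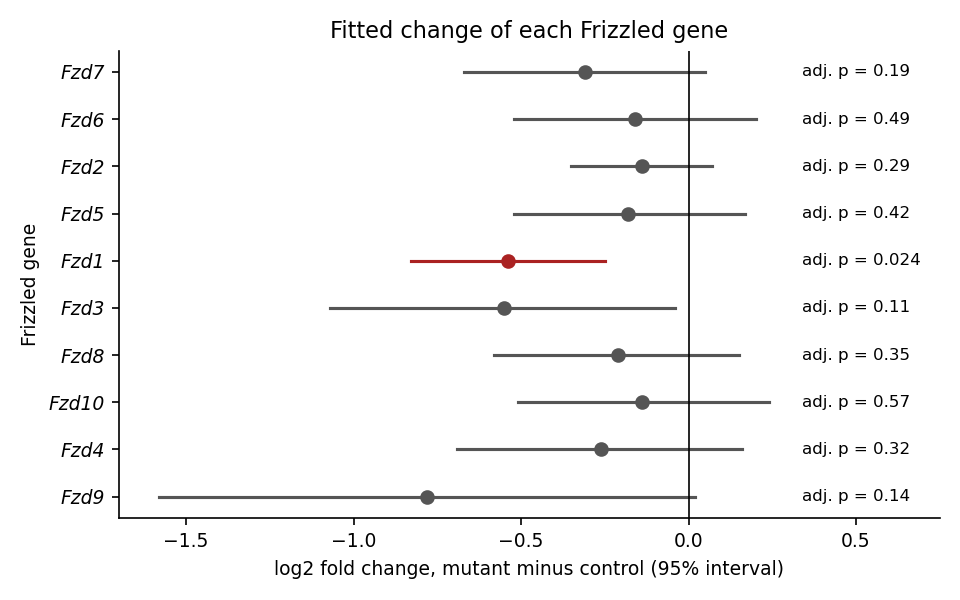
Log2 fold change of each Frizzled gene, mutant minus control, from edgeR's quasi-likelihood fit with its 95% interval, in order of the control level per kb. *Fzd1* (red) passed the threshold with an adjusted p of 0.024, and all 10 fitted values lie below 0.

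*Fzd3* and *Fzd6*, which orient cells within a sheet and guide axons, differed from each other in their spread. *Fzd3* had 86.9, 96.2 and 90.4 CPM in control libraries and 63.1, 40.3 and 82.9 CPM in mutant libraries. The groups did not overlap, but the mutant libraries themselves ranged widely, with a coefficient of variation of 34.3% against 5.17% in control. Its log2 fold change of -0.55 was as large as that of *Fzd1* and did not pass (95% interval -1.07 to -0.04, edgeR adjusted p = 0.11). Without mutant library 3, the highest of the mutant libraries, it was -0.82 (edgeR adjusted p = 0.025), and without mutant library 2, the lowest, it was -0.31 (edgeR adjusted p = 0.1). *Fzd3* has the lowest GC content of the family, 40.3%, and with an offset for GC content in the fit its log2 fold change was -0.26 (edgeR adjusted p = 0.4). With an offset for GC content and length it was -0.13 (edgeR adjusted p = 0.59). *Fzd6* had 118, 110 and 104 CPM in control libraries and 111, 75 and 112 CPM in mutant libraries. Mutant library 2 stood alone below the controls, and the log2 fold change of -0.16 did not pass (95% interval -0.52 to 0.20, edgeR adjusted p = 0.49).

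*Fzd5*, needed in the developing eye and placenta, had 62.7, 66.6 and 64 CPM in control libraries and 69.4, 44.7 and 57.1 CPM in mutant libraries. Mutant library 1 was the highest of all 6 and mutant library 2 the lowest. The log2 fold change of *Fzd5* was -0.18 (95% interval -0.52 to 0.17, edgeR adjusted p = 0.42), and -0.34 without mutant library 1. *Fzd8* had 30, 40.5 and 37.3 CPM in control libraries and 37.5, 27.3 and 28 CPM in mutant libraries. The groups overlapped and the log2 fold change was -0.21 (95% interval -0.58 to 0.15, edgeR adjusted p = 0.35), running from -0.37 without mutant library 1 to -0.12 without mutant library 2.

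Among the low members, *Fzd4* had 9.49, 15.4 and 14.3 CPM in control libraries and 11.9, 10 and 10.7 CPM in mutant libraries. Its lowest value was in control library 1, so the groups overlapped, and the log2 fold change was -0.26 (95% interval -0.69 to 0.16, edgeR adjusted p = 0.32). It was -0.46 without control library 1 (edgeR adjusted p = 0.061) and -0.14 without control library 2. *Fzd10* had 12.6, 12.5 and 14.3 CPM in control libraries and 14, 9.25 and 12.5 CPM in mutant libraries, with a log2 fold change of -0.14 (95% interval -0.51 to 0.24, edgeR adjusted p = 0.57). *Fzd9* rested on 19 to 68 counts per library and had 0.792, 1.17 and 0.858 CPM in control libraries and 0.643, 0.676 and 0.322 CPM in mutant libraries. Its groups did not overlap, yet its log2 fold change of -0.78 had the widest interval of the family, -1.58 to 0.02 (edgeR adjusted p = 0.14), and was -0.51 without mutant library 3.

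In all, 3 of the 10 members, *Fzd1*, *Fzd3* and *Fzd9*, had mutant libraries that all lay below the control libraries, and none had them all above. Among all genes tested, 22.1% did not overlap in the lower direction and 22.6% in the higher. The fitted log2 fold change was below 0 for all 10 members, against 49.3% of all genes tested, and the median of the members was -0.24 against 0.01 over all genes. These values are not independent, since they come from the same 6 libraries. Mutant library 2 was the lowest mutant library for 9 members, all but *Fzd9*, and the lowest of all 6 libraries for 8, all but *Fzd4* and *Fzd9*. Over all genes tested, it was the lowest mutant library for 36.9% and the lowest of all 6 for 27.4%. Without it, 8 of 10 fitted values were below 0 and the median was -0.15. Without any 1 of the other 5 libraries all 10 were below 0, and the median ran from -0.38 without control library 1 to -0.18 without control library 2. In the fit without mutant library 2, *Fzd5*, *Fzd6* and *Fzd10* stood at -0.02, 0.02 and 0.03, and *Fzd1* at -0.45 (edgeR adjusted p = 0.038).

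**Figure D3:**
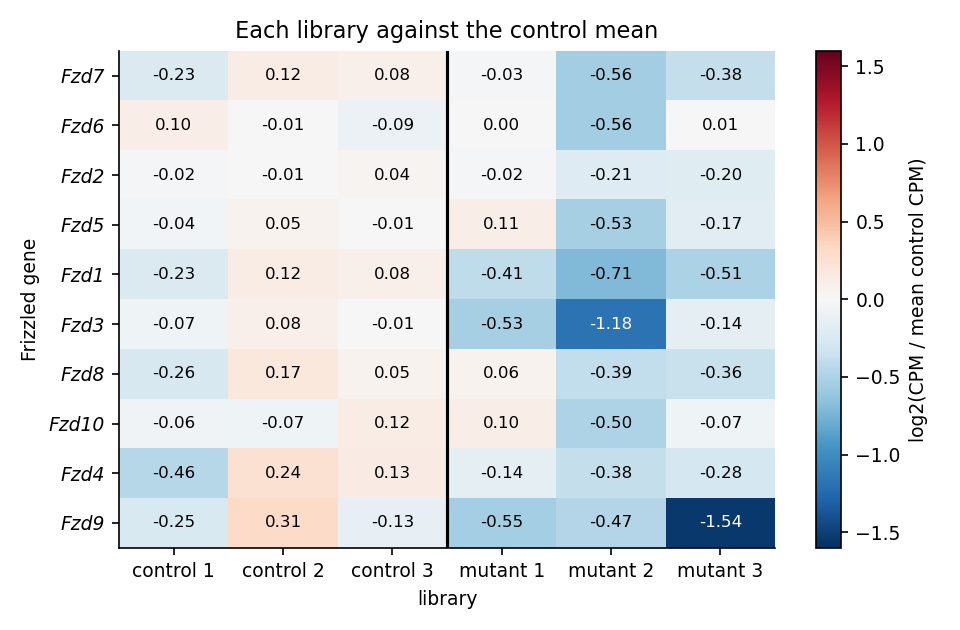
Log2 ratio of each library's CPM to the mean control CPM for the 10 Frizzled genes (rows) in the 6 libraries (columns), with blue below and red above the control mean. Mutant library 2 is below the control mean for all 10 genes, from -0.21 for *Fzd2* to -1.18 for *Fzd3*. *Fzd1*, *Fzd2*, *Fzd3*, *Fzd4*, *Fzd7* and *Fzd9* are below it in all 3 mutant libraries.

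The pattern of *Fzd1* over the 6 libraries was closely followed by those of *Magi3* and *Eml4*, with Pearson correlations of log2 CPM of 0.9991 and 0.998 and a Spearman correlation of 1 for each. With 6 libraries that differ in genotype and share their scaling, 65 genes reached a correlation above 0.99.

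The other genes of Wnt reception were taken as 7 lists with 54 genes, of which 48 were tested. Of these, 2 rose and 6 fell, or 16.7%, below the 20.1% of all genes tested. Their median log2 fold change was -0.07, against 0.01 over all genes. No list gene passed without control library 2 or without control library 3, where 10 and 12 of the 48 had an unadjusted p-value under 0.05 in edgeR (other tools were not run on these libraries). Of all genes, 4.57% and 4.5% passed there, and 25.5% and 26% had such an unadjusted p-value. On all libraries DESeq2 called 15 of the 48, or 31.2%, above its 28% of all genes, so the order of these shares depends on the tool.

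Among the Wnt ligands, 1 rose and 1 fell of 14 tested in edgeR, while DESeq2 called 4 as higher and 1 as lower, adding *Wnt4*, *Wnt10b* and *Wnt11*. *Wnt5a*, the ligand that Ror2 binds, had 176, 244 and 230 CPM in control libraries and 138, 111 and 140 CPM in mutant libraries. Its level fell by 0.74 in log2 units (standard error 0.15, edgeR adjusted p = 0.016), and its groups did not overlap. *Wnt3a*, a ligand of the β-catenin branch, had 66.6, 49.1 and 53.8 CPM in control libraries and 88.3, 73.4 and 97.6 CPM in mutant libraries and rose by 0.61 in log2 units (edgeR adjusted p = 0.026). Neither it nor *Sfrp5*, the other gene of these lists that rose, passed with the offset for GC content, under which 4 genes passed, all lower.

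Of the 6 co-receptors only *Ror2*, the targeted gene, passed. It had 38.2, 36.2 and 36.7 CPM in control libraries and 27.9, 28.1 and 26.3 CPM in mutant libraries, a fall of 26% (edgeR adjusted p = 0.013). The deposited counts are per gene and do not separate transcripts that lack the floxed part, and *Ror2* of the epithelium is left intact in the mutant. *Lrp6* had a log2 fold change of -0.38 (edgeR adjusted p = 0.1) and *Ptk7* one of 0.27 (edgeR adjusted p = 0.18). None of the 3 Dishevelled genes passed in edgeR or in DESeq2, and none had an unadjusted p-value under 0.05.

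Rnf43 and Znrf3 remove Frizzled receptors from the membrane, and R-spondins with Lgr receptors hold them back. Of these 9 genes *Rspo4* alone passed, with 295, 290 and 281 CPM in control libraries and 200, 178 and 101 CPM in mutant libraries, and fell by 0.85 in log2 units (edgeR adjusted p = 0.035). *Rspo2* and *Lgr4* had log2 fold changes of -0.91 and -0.45 and did not pass in edgeR (adjusted p = 0.073 and 0.083), whereas DESeq2 called both as lower. Of 2 Shisa genes, whose proteins hold Frizzled receptors in the endoplasmic reticulum, *Shisa2* fell from 19.6 ± 4.26 to 10.9 ± 1.3 CPM (SD, n = 3, edgeR adjusted p = 0.017).

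Of 4 genes for Norrin and for cofactors of Frizzled 4 and Wnt7 signaling, 2 fell in edgeR, and DESeq2 called *Reck* as lower too. *Ndp*, which encodes Norrin, went from 0.877 ± 0.0669 to 0.427 ± 0.0676 CPM and *Tspan12*, its cofactor at Frizzled 4, from 6.61 ± 0.465 to 4.23 ± 0.99 CPM (SD, n = 3, edgeR adjusted p = 0.033 and 0.045). *Ndp* rested on only 22 to 58 counts per library. *Fzd4* itself did not pass, as given above. Of 10 secreted antagonists, *Sfrp5*, which carries a Frizzled-like domain that binds Wnt ligands, rose from 8.8 ± 0.927 to 13.5 ± 2.35 CPM (SD, n = 3, edgeR adjusted p = 0.031), and the other 9 did not pass in edgeR. DESeq2 called *Notum*, an enzyme that inactivates Wnt ligands, as higher as well.

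**Figure D4:**
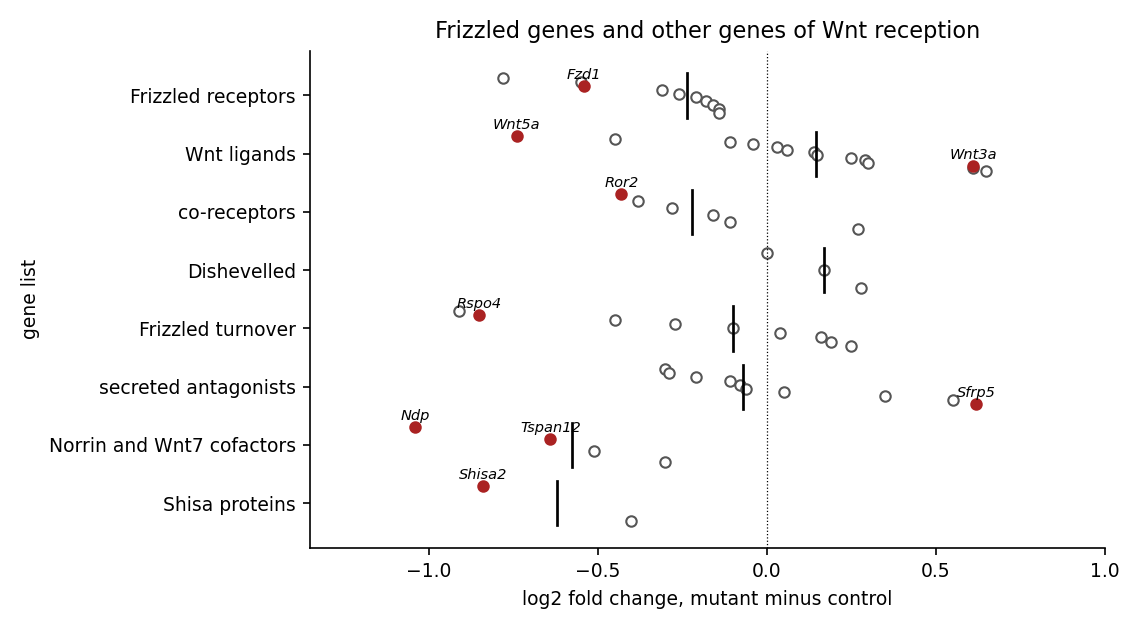
Log2 fold change, mutant minus control, of each tested gene in the Frizzled family and 7 other lists of Wnt reception, with filled red points for genes with an adjusted p under 0.05 and black bars for list medians. *Fzd1* is the filled point among the Frizzled receptors, and *Wnt5a* and *Wnt3a* lie on opposite sides of 0.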

How the data were processed

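RNA was taken from dental pulp of mandibular first molars, in 3 control and 3 mutant libraries, and sequenced as single-end reads of 75 cycles. The authors deposited estimated counts per gene, without normalization, after alignment to mm10. The paper's methods name TopHat 2 as the aligner, while the submitters' processing notes list STAR 2.6.1d and Partek. The counting program, annotation and use of strand are not given in the sources used here. A second deposited table gives a normalized signal. The paper names RPKM, but the values equal the count plus 1 multiplied by 1 factor for each library, so length does not enter. The count table holds 6 further sample columns that were not used. Groups came from the genotype in the labels. The codes in the sample names are not explained. They differ between the groups, with OR in all mutant names, so a batch that follows genotype cannot be told apart from it. They also differ within the control group, with WW for control library 1 and OW for control libraries 2 and 3. Whether the control libraries differ by this code was not tested.

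Estimated counts were rounded to whole numbers, because the design had assumed a count test, and 47.8% of the values, zeros included, were exactly whole as deposited. Libraries were scaled with TMM, genes were filtered with filterByExpr, and 19330 genes were tested with edgeR 4.0.16 (robust quasi-likelihood test, Benjamini-Hochberg adjustment, R 4.3.3). limma 3.58.1 and DESeq2 1.42.0 served as alternatives. Single values were compared with exact permutation tests, on log2 CPM with a prior count of 2 for genes and on the log2 ratio of CPM for ratios. Chi-square values per gene were 60.6 or more for every pair of libraries, so no library was counted as a repeat of another. The test was also run on counts simulated with the same dispersion for every gene, which does not show how it behaves on these libraries. Coordinates, exon lengths and GC content are from GENCODE M21 (mm10), which matched 27497 of 27506 genes at the same start, and promoter windows are from RefSeq (GRCm38.p6). Intervals and tests cover these libraries only.

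Alternatives were other tests, scalings and filters, the normalized table with pseudocounts of 1 and 0.1, offsets for GC content and length, the replicate number as a block, the longest transcript as length, and leaving out each library. All 10 members were named, with *Ror2*, at most the 3 genes of smallest p in each list of Wnt genes, and the 3 genes most correlated with the member of smallest p. Of these 3, 1 is not reported here. Marker genes named singly the Wnt genes that DESeq2 alone called and the ratios of *Fzd1* to other members were chosen after their values were seen. Members and lists were chosen with earlier results of these data known.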

Additional observations from a re-analysis of the deposited data

How the results depend on the processing

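*Fzd1* passed the threshold in 15 of 18 alternatives and kept its direction in all 18. The count of members passing was 0 with the replicate block, where *Fzd1* stood at -0.53 (edgeR adjusted p = 0.06) and 2 members had an unadjusted p under 0.05. It ran from 0 to 2 when each library was left out, being 0 without control library 2 or 3, where 1 member each had an unadjusted p under 0.05, and 2 without mutant library 3, where *Fzd3* joined. The replicate numbers follow sample indexes that both groups share. The deviations of same-numbered libraries correlated at -0.10, -0.08 and 0.00. With 3 libraries in each group, these values cannot decide whether the samples were paired. The paper's methods mention 3 pairs of samples, and the labels do not say which samples belong together. *Fzd6* and *Fzd10* reversed to 0.02 and 0.03 without mutant library 2, and over the libraries left out their log2 fold changes ran from -0.26 to 0.02 and from -0.27 to 0.03. The other 8 members kept their sign in every alternative that could be run. *Fzd9* was removed by the stricter filter.

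The number of all genes passing, 3890, moved to 2146 with the replicate block and to 1395 with the block and an offset for GC content, and ran from 894 to 4961 when each library was left out, with 909 without control library 2, 894 without control library 3 and 2351 without mutant library 1. DESeq2 called 5410. The number among the 48 other Wnt genes, 8, moved to 15 with DESeq2, 4 with the replicate block, 4 with the GC offset, 3 with both, and ran from 0 to 10 when each library was left out, with 0 without control library 2 or 3 and 4 without control library 1 or mutant library 1. The control order of the levels stayed the same except without control library 1, where the 2 genes *Fzd1* and *Fzd5* swapped places, so that the number of genes with another rank ran from 0 to 2. The causes were not tested. *Fzd9* had 19 to 68 counts per library, the fewest of the members.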
